A study of Homo sapiens with 6 samples.

Results

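Eph receptors and their ephrin ligands were read in 786-O, a human renal cell carcinoma line that is widely grown in culture, on 3 arrays of cells with a short hairpin RNA against ERCC6L (shERCC6L) and 3 arrays of cells with a negative control hairpin (shNC). ERCC6L, also called PICH, is a DNA translocase that binds the DNA threads between separating sister chromatids. Both hairpins were delivered by lentivirus. The number of hairpins per gene, the time after infection and whether the cells were a pool or a clone are not given in the labels, and nothing in them says that the replicates were separate cultures, so the p-values here cover only the variation among these arrays, which may be technical. The family was chosen by name: every probe set, the group of short probes that gives 1 value per array, whose only gene symbol was EPHA2, EPHA4, EPHB2, EPHB3, EPHB4, EFNA1, EFNA4, EFNA5, EFNB1 or EFNB2. This gave 25 of the 49293 probe sets tested and 9 of 18132 genes. EPHB2 was not analysed here. The list holds only a part of the human Eph and ephrin genes, and it was drawn up with earlier results of these data known.

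Eph receptors are the largest family of receptor tyrosine kinases, and their ephrin ligands are also held in the membrane, so a signal needs contact between cells. Receptors of class A mostly bind ephrins of class A, which hang on a lipid anchor, and receptors of class B mostly bind ephrins of class B, which cross the membrane. EPHA4 and EPHB2 bind across the classes. A bound receptor signals into its own cell (forward signalling), the bound ephrin signals into the other cell (reverse signalling), and together they steer repulsion, adhesion and tissue borders, among them the artery and vein border kept by ephrin-B2 and EphB4.

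The ERCC6L probe set read 97.6, 97.5 and 97.8 on the shERCC6L arrays, against 239.9, 244.3 and 261.4 on the shNC arrays. All signals are the deposited linear intensities. The fold change was -1.22 ± 0.04 (SE, n = 3 per group), given like every other as the log2 of (signal + 16), shERCC6L over shNC, where the added 16 shrinks the change of dim genes. The adjusted p of the limma fit over all probe sets was 4.6e-07. All 9 markers of a renal epithelial line reached the median level of all genes. Their summed signal was 23723 to 24336 in shERCC6L and 23914 to 24129 in shNC. Most of it came from VIM, with a mean of 14885 in shERCC6L and 14926 in shNC and a fold change of -0.004. The sums therefore say little about the other markers. Of the 9, 5 passed the test, PAX8, LHX1 and KRT18 higher and CDH6 and CDH2 lower. KRT18 passed narrowly (limma adjusted p = 0.047), and with shERCC6L replicate 2 or any shNC replicate left out only 2 of the 9, PAX8 and LHX1, were higher. Markers of other cells were dim in both groups. The 6 endothelial markers summed to 232.6 to 244.7 in shERCC6L and 244.2 to 251.1 in shNC with 0 past the test, the 6 fibroblast markers to 144.3 to 146.9 in shERCC6L and 163.9 to 175.5 in shNC with COL1A1 lower (not so with its probe sets averaged, limma adjusted p = 0.19), and the 5 leukocyte markers to 213.5 to 223.4 in shERCC6L and 185.1 to 204.4 in shNC with CD68 higher (not so without shERCC6L replicate 2, limma adjusted p = 0.056, or shNC replicate 3, 0.053). CD68 alone had a mean of 152.1 in shERCC6L and 127.4 in shNC, and COL1A1 of 53.3 in shERCC6L and 74.5 in shNC. The leukocyte and fibroblast sums thus differ mostly through these genes. CD68 was the only one of these 17 markers at the median level, and no marker can be called absent, as the table holds no detection calls. The part of these differences in the results below was not tested.

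In cells with the ERCC6L hairpin, 2 ligands of class A, EFNA5 and EFNA1, fell, while the ligand EFNB2 and the receptor EPHA2 rose. The other 5 genes, EPHA4, EPHB3, EPHB4, EFNA4 and EFNB1, did not pass. The largest change, that of EFNA5, was 1.40-fold, so all of these are modest shifts in level. With each gene read on its brightest probe set over all 6 arrays, 2 of the 9 genes were higher and 2 lower at an adjusted p under 0.05, where the same test called 17.8% of all genes higher and 12.9% lower. Of the brighter genes, those that reached the median level, it called 32.1% higher and 19.1% lower, and 6 of the 9, all 4 called ones among them, are in that range. Against so high a background the number of calls is not itself a result about the family. By probe set, 5 of 25 were higher and 3 lower, beside 16.8% and 11.9% of all probe sets. The median fold change of the 9 genes was -0.06 and of the 25 probe sets -0.04, beside -0.01 for all genes and -0.01 for all probe sets. In bulk RNA, fewer cells that express a gene and less RNA per cell cannot be told apart.

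**Figure D1:**
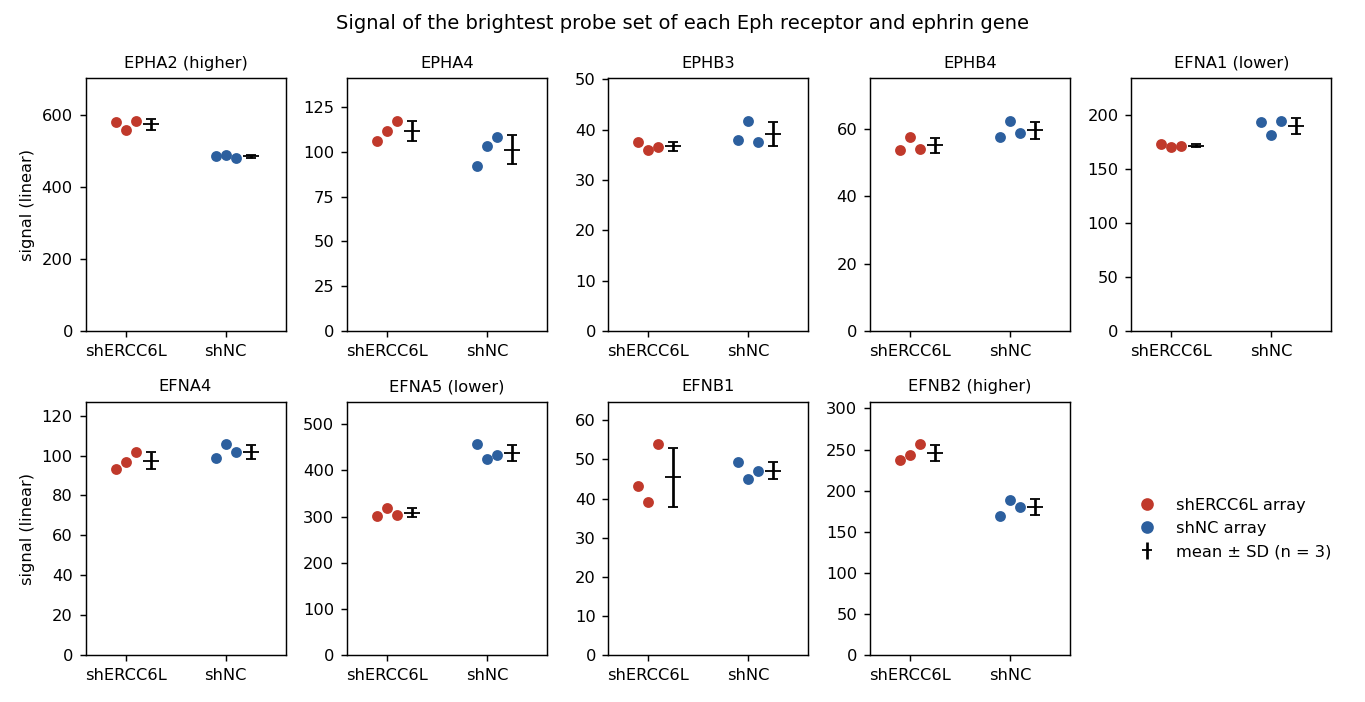
Linear signal of the brightest probe set of each of the 9 genes on each array (red shERCC6L, blue shNC), with the mean and SD of 3 arrays in black and each axis starting at 0. The groups stand apart for EPHA2 and EFNB2, which were higher in shERCC6L, for EFNA1 and EFNA5, which were lower, and narrowly for EPHB4, which did not pass.

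The 300 bases around the start sites of EPHA2, EFNB2 and EFNA5 are given because these genes changed most. They run from 250 bases before the start to 50 after it, from RefSeq on GRCh38.p14, 5′ to 3′ on the strand of the gene. The EPHA2 window is chr1:16156020-16156319, the EFNB2 window chr13:106535613-106535912 and the EFNA5 window chr5:107670888-107671187, all on the minus strand. Capitals mark matches, on either strand, to GGGCGG (an SP factor motif) or CATTCC (a TEAD motif).
EPHA2: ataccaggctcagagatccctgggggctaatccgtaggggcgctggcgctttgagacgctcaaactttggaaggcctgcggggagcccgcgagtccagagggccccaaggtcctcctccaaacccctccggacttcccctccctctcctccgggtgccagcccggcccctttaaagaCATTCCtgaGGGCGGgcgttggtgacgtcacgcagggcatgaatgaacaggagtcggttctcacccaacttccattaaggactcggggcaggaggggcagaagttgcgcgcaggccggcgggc
EFNB2: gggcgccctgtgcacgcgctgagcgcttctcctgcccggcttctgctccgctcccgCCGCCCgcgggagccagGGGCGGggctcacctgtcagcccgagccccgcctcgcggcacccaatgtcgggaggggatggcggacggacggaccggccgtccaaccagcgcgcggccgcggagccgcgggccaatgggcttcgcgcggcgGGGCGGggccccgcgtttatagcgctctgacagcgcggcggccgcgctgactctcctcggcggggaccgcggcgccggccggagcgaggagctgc
EFNA5: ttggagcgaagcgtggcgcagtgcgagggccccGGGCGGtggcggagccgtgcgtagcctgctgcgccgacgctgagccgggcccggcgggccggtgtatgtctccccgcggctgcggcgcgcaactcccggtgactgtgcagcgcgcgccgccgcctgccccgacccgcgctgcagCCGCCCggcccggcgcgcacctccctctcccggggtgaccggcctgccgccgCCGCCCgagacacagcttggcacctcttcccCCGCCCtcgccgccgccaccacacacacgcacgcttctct
The EPHA2 window held 1 SP match and 1 TEAD match, the EFNB2 window 3 SP matches and the EFNA5 window 4 SP matches. All windows of the other measured genes of the family also held SP matches, from 1 for EFNB1 to 5 for EPHB4 and EFNA1. EPHA4, listed with more than 1 start site, had 1 SP match in a window and 5 in another. An SP match is thus not particular to the 3 genes shown. The G and C content was 64.3% for EPHA2, 78.7% for EFNB2 and 78% for EFNA5, beside a median of 58.7% over 35116 promoter windows of this length. Of those windows 45% held the SP motif and 14% the TEAD motif. The AP-1 motif TGACTCA (4.95% of windows), the ETS motif CCGGAA (17.2%) and the hypoxia response motif ACGTG (21.4%) were also searched on both strands and matched none of these 3 windows. No searched motif contains another. A match is a string of letters and not a measured site.

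Of the receptors, EPHA2 is an epithelial kinase known for growth control and for ligand-independent signalling in carcinoma. Its brighter probe set read 579.8, 558.1 and 585 on the shERCC6L arrays, against 485.5, 490.3 and 481.3 on the shNC arrays. All shERCC6L values lay above all shNC values. The mean was 574.3 ± 14.3 in shERCC6L and 485.7 ± 4.48 in shNC (SD, n = 3 each), and EPHA2 rose by 0.23 ± 0.03 (log2, SE; limma adjusted p = 0.0009). Its dimmer probe set read 397.9, 413.1 and 406.3 in shERCC6L, against 327, 302.1 and 318.7 in shNC. That is a rise of 0.35 ± 0.04 (limma adjusted p = 0.00023), again with no overlap. The difference between the rises of the probe sets was -0.11 (brighter minus dimmer, 95% interval -0.23 to 0.01, limma adjusted p = 0.27).

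EPHA4 is best known for guiding axons. Its brightest probe set read 105.9, 111.4 and 117.4 in shERCC6L, against 92.2, 103 and 108.2 in shNC. The groups overlapped, and the fold change of 0.12 (95% interval -0.01 to 0.25, limma adjusted p = 0.15) did not pass. The 3 dimmer probe sets had fold changes of 0.08, 0.05 and -0.04. None of the 4 passed, and in each the groups overlapped.

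The class B receptors among the listed genes, EPHB4 and EPHB3, were dimmer, and none of their probe sets passed. EPHB1, another class B receptor outside this list, was brighter and is described below. EPHB4, which pairs with ephrin-B2 in veins, had 5 probe sets with fold changes from -0.09 to -0.04. Its brightest read 53.6, 57.5 and 53.9 in shERCC6L, against 57.6, 62.4 and 58.6 in shNC. These groups stood apart only narrowly, and the change of -0.09 (95% interval -0.18 to 0.00, limma adjusted p = 0.14) missed the threshold. EPHB3, a receptor of the intestinal crypt that sorts cells along it, had a single probe set at 37.7, 36 and 36.5 in shERCC6L, against 37.9, 41.8 and 37.6 in shNC. Its change was -0.06 (95% interval -0.15 to 0.03) and the groups overlapped. Both genes lay under the median level, where the added 16 shrinks a change most.

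**Figure D2:**
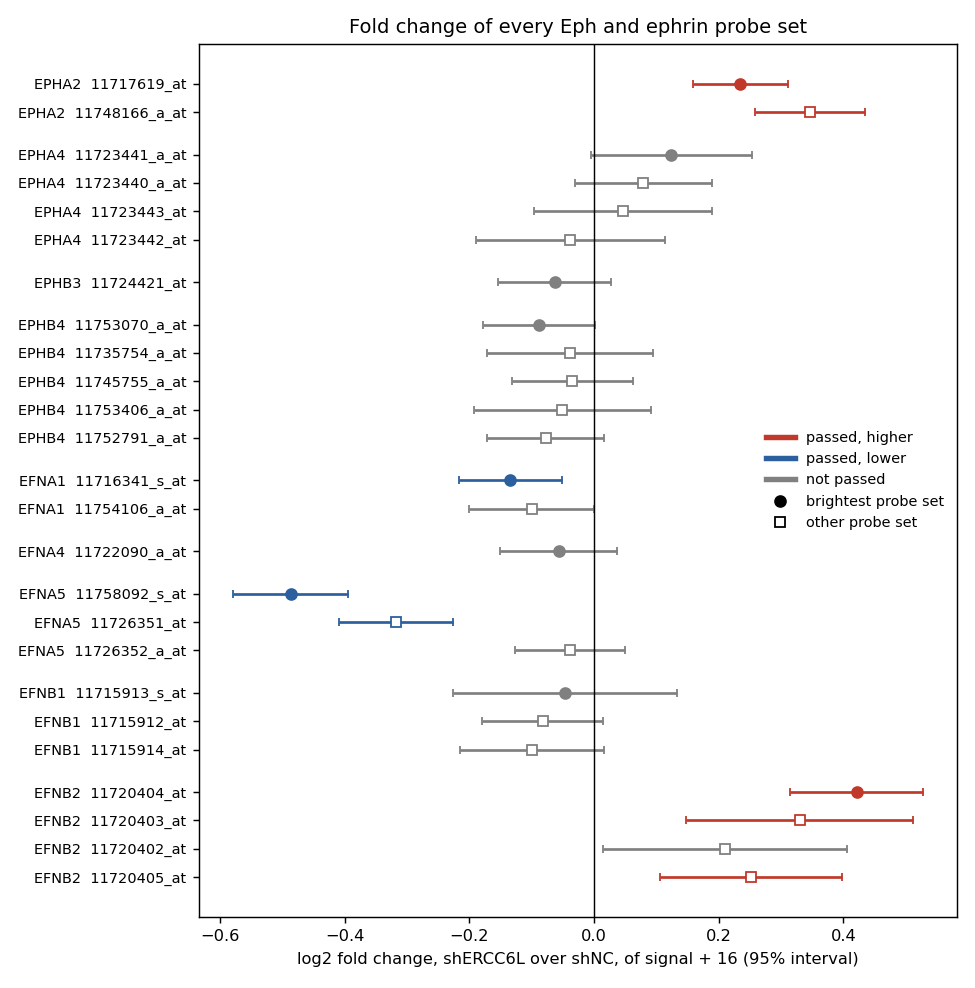
Log2 fold change of (signal + 16), shERCC6L over shNC, of all 25 probe sets with the 95% interval of the limma fit. Filled circles are the brightest probe set of a gene and open squares the others, red passed as higher, blue as lower and grey did not pass. Both EPHA2 and all 4 EFNB2 probe sets lie right of 0, and all 6 ephrin-A probe sets lie left of it. So do all 6 probe sets of EPHB3 and EPHB4 and all 3 of EFNB1, of which none passed.

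Of the ephrins, EFNA5 moved most. EFNA5 encodes a lipid-anchored ligand of EphA receptors that shapes neural maps. Its brightest probe set read 301.3, 319.1 and 303.9 in shERCC6L, against 456.7, 423.8 and 434 in shNC. All shERCC6L arrays lay well under all shNC arrays. The mean was 308.1 ± 9.61 in shERCC6L and 438.2 ± 16.9 in shNC (SD, n = 3 each), so 70.3% of the control signal was left. EFNA5 fell by 0.49 ± 0.04 (log2, SE; limma adjusted p = 4.5e-05), and 3.63% of all genes had a larger absolute change. The second probe set read 225.7, 217.1 and 238.7 in shERCC6L, against 287, 282.7 and 291.2 in shNC, and fell by 0.32 ± 0.04 (limma adjusted p = 0.00046).

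The third EFNA5 probe set did not follow. It was dim, at 30.3, 28.2 and 30.2 in shERCC6L against 29, 31.4 and 31.9 in shNC, with a fold change of -0.04 (95% interval -0.13 to 0.05). Its change differed from that of the brightest by -0.45 (brightest minus dim, 95% interval -0.60 to -0.30, limma adjusted p = 0.0029). It was the only one of 16 such pairs in the family to differ, beside 10.4% of all 26856 pairs in the table. The brightest and the second did not pass this test (difference -0.17, 95% interval -0.31 to -0.03, adjusted p = 0.13 over all pairs by limma). With its probe sets averaged, EFNA5 fell by 0.28, still past the threshold (limma adjusted p = 4.3e-05). The name of its brightest probe set ends in _s_at, by which Affymetrix marks probes that may match transcripts of more than 1 gene. The second, which also fell, does not carry this mark.

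EFNA1, a ligand of EphA2 first described as a gene induced by tumour necrosis factor, read 173.2, 170.8 and 171.5 on its brighter probe set in shERCC6L, against 193.5, 182 and 195.2 in shNC. The groups did not overlap, and EFNA1 fell by 0.13 ± 0.04 (log2, SE; limma adjusted p = 0.023). This probe set also carries the _s_at mark. The call was lost when shERCC6L replicate 2 (limma adjusted p = 0.073), shERCC6L replicate 3 (0.057), shNC replicate 1 (0.076) or shNC replicate 3 (0.084) was left out, and with an added value of 1 in place of 16 (0.055). Its dimmer probe set read 99.4, 96.4 and 97.8 in shERCC6L, against 110.3, 109.6 and 98.6 in shNC. There the groups overlapped, and the change of -0.10 (95% interval -0.20 to 0.00, limma adjusted p = 0.13) did not pass until shNC replicate 3 was left out (-0.15, adjusted p = 0.027). With both averaged, EFNA1 fell by 0.12 (limma adjusted p = 0.009).

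The single EFNA4 probe set, for another lipid-anchored ligand, read 93.3, 96.9 and 102 in shERCC6L, against 98.5, 105.6 and 101.6 in shNC. The groups overlapped and the fold change was -0.06 (95% interval -0.15 to 0.04).

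EFNB2 encodes the ephrin of arterial endothelium, which binds EphB4 and EphA4 and signals in reverse through its cytoplasmic tail. Its brightest probe set read 237.6, 243.1 and 256.4 in shERCC6L, against 169.5, 189.1 and 180.1 in shNC. All shERCC6L arrays lay above all shNC arrays. The mean was 245.7 ± 9.67 in shERCC6L and 179.5 ± 9.82 in shNC (SD, n = 3 each), and EFNB2 rose by 0.42 ± 0.05 (log2, SE; limma adjusted p = 0.00022), with 5.11% of all genes at a larger absolute change. Of its 3 dimmer probe sets, 2 also passed.

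The next brightest EFNB2 probe set read 86.7, 106.4 and 80.6 in shERCC6L, against 69.4, 65.5 and 71.9 in shNC, and rose by 0.33 ± 0.08 (limma adjusted p = 0.014). The dimmest read 42.6, 49.5 and 52.8 in shERCC6L, against 40.8, 34.9 and 38.2 in shNC, and rose by 0.25 ± 0.06 (limma adjusted p = 0.018). These groups did not overlap, but the call of the dimmest was lost without shERCC6L replicate 2 (adjusted p = 0.063 by limma), shERCC6L replicate 3 (0.054) or shNC replicate 2 (0.058). The remaining probe set read 51.5, 52.4 and 48.4 in shERCC6L, against 50.9, 35.1 and 40.3 in shNC, where the groups overlapped. Its change of 0.21 did not pass (limma adjusted p = 0.11) until shNC replicate 1 was left out (0.32, adjusted p = 0.0042). None of the 3 differed from the brightest in the test of the difference.

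EFNB1, the X-linked ephrin whose loss causes craniofrontonasal syndrome, was dim on all 3 of its probe sets. The brightest read 43.2, 39.1 and 53.9 in shERCC6L, against 49.4, 45 and 47.1 in shNC. The shERCC6L arrays enclosed the shNC arrays, and the fold change was -0.05 (95% interval -0.23 to 0.13). The other probe sets had fold changes of -0.08 and -0.10, and none passed.

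Over the family, the groups did not overlap for 5 of the 9 genes, 2 higher and 3 lower, beside 43.4% of all genes. By probe set this held for 10 of 25, 5 higher and 5 lower, beside 41% of all probe sets. EPHB4 is the gene whose groups stood apart without a call.

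**Figure D3:**
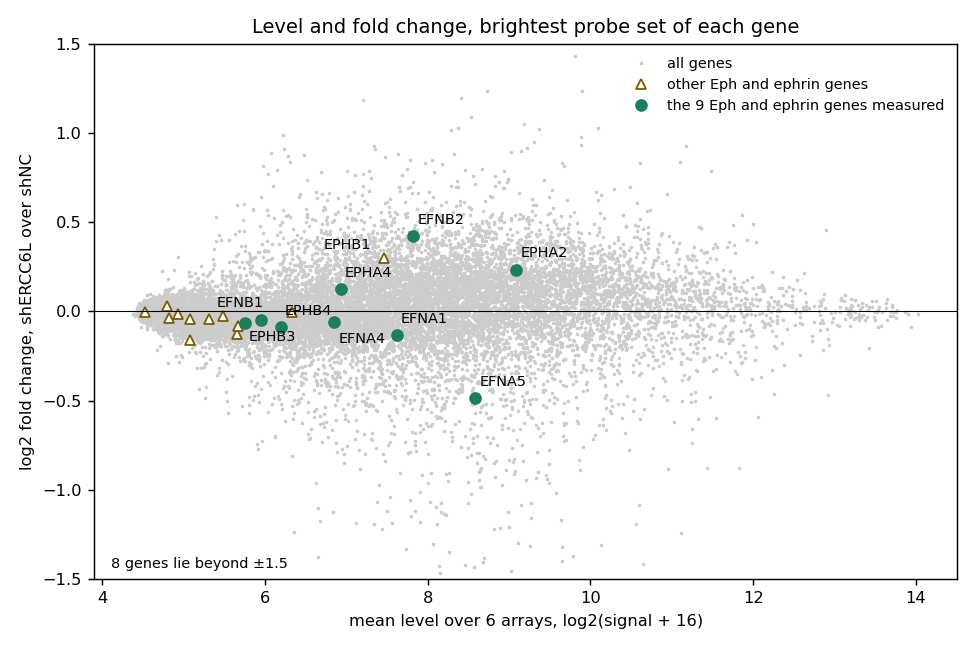
Mean level over all 6 arrays as log2(signal + 16) against the log2 fold change, shERCC6L over shNC, of the brightest probe set of each gene (grey, all genes; green circles, the 9 genes; open triangles, the other Eph receptors and ephrins). Of the 9, EFNB2 lies farthest above 0 and EFNA5 farthest below, and most of the other Eph receptors and ephrins sit at low levels near 0.

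The 12 other Eph receptors and ephrins of the human genome on the array were mostly dim, with only EPHB1 at the median level. In this list, 1 gene was higher and 1 lower, beside 17.8% and 12.9% of all genes, and the median fold change was -0.03. At or above the median level these shares were 32.1% and 19.1%, so both are lower among dimmer genes. The shares of all genes are thus not matched to this mostly dim list. EPHB1, a class B receptor of neural and vascular tissue, read 203.3, 178.1 and 162.1 on its brightest probe set in shERCC6L, against 149, 129.5 and 153.4 in shNC. The groups did not overlap, and EPHB1 rose by 0.30 ± 0.08 (log2, SE; limma adjusted p = 0.024). This probe set carries the _s_at mark, as the brightest of EFNA5 does. The call was lost without shERCC6L replicate 1 (limma adjusted p = 0.061), shERCC6L replicate 2 (0.06) or shNC replicate 2 (0.071), and with an added value of 64 (0.051).

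A second EPHB1 probe set was steadier, at 151.4, 152.4 and 156.4 in shERCC6L against 105.8, 103 and 114.4 in shNC, a rise of 0.45 ± 0.04 (limma adjusted p = 7.7e-05). It is the only EPHB1 probe set that rose without the _s_at mark. Of all 6 EPHB1 probe sets, 3 rose and 3 did not pass. The dimmest of these, at 7.52 ± 0.70 in shERCC6L and 8.01 ± 0.11 in shNC (SD, n = 3 each), differed from the brightest by 0.33 in fold change (limma adjusted p = 0.032). EPHA6 fell by 0.16 ± 0.04 (limma adjusted p = 0.019) at a signal of 16.1 ± 1.36 in shERCC6L and 19.9 ± 1.03 in shNC (SD, n = 3 each). None of its 4 other probe sets passed. Its call was lost with probe sets averaged (-0.03) and without shERCC6L replicate 1 (limma adjusted p = 0.064), shERCC6L replicate 2 (0.071) or shNC replicate 1 (0.069). EFNB3 and EPHA8 followed in order of p, at -0.13 and -0.08, and did not pass. EFNB3 passed as lower without shERCC6L replicate 1 (-0.18, limma adjusted p = 0.03).

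Genes around Eph signalling moved in both directions. Of 21 measured adaptors and exchange factors that bind Eph receptors or act below them, 6 were higher and 4 lower, with a median fold change of 0.00. Of these, 16 reached the median level, where 32.1% of all genes were called higher and 19.1% lower, so these counts lie near the background. CHN1, a Rac GTPase-activating protein that acts below EphA4 in mouse neurons, rose by 0.55 ± 0.03 (log2, SE; limma adjusted p = 9.4e-06). PIK3R1, a regulatory subunit of phosphoinositide 3-kinase, rose by 0.40 ± 0.03, also on 6 of its 7 other probe sets. VAV3, an exchange factor that binds activated Eph receptors, fell to 77.7 in shERCC6L, against 152.8 in shNC, or by 0.85 ± 0.07. 4 of its 5 other probe sets also fell, and the change was -0.41 with all averaged. ANKS1A, an adaptor of EphA receptors, fell by 0.68 ± 0.07, but 3 of its 4 other probe sets did not pass and the averaged change was -0.24.

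Of 13 kinases and phosphatases, 4 were higher and 6 lower, with a median of -0.04, and 12 of them reached the median level, with the same 32.1% and 19.1% as background. YES1, a kinase of the Src family, fell by 0.75 ± 0.03 (limma adjusted p = 1.3e-06) on its single probe set, with a mean signal of 425.8 in shERCC6L and 727.8 in shNC. PTPN1, a phosphatase that removes phosphate from receptor kinases, fell by 0.29 ± 0.03. The kinase gene AKT1 rose by 0.44 ± 0.05 and ABL2 by 0.36 ± 0.04. With probe sets averaged these were 0.25 for AKT1 and 0.18 for ABL2. Among 8 partners of reverse signalling by ephrin-B, 1 was higher and 1 lower, with a median of -0.04, beside 17.8% and 12.9% of all genes. RGS3, whose PDZ form links ephrin-B to G proteins, rose by 0.36 ± 0.05 (limma adjusted p = 0.00058, averaged change 0.20), and the PDZ protein gene SDCBP fell by 0.14 ± 0.04 (limma adjusted p = 0.031), a call lost in 6 of 16 alternatives. Among these were leaving out shERCC6L replicate 1 (limma adjusted p = 0.093), shERCC6L replicate 2 (0.082), shNC replicate 2 (0.093) or shNC replicate 3 (0.089). Of the 5 other SDCBP probe sets, 4 also fell, and the change was -0.17 with all averaged. PICK1 and PARD6B, at -0.15 and -0.16, did not pass. PICK1 passed without shERCC6L replicate 1 (-0.20, limma adjusted p = 0.022) and PARD6B without shERCC6L replicate 3 (-0.26, adjusted p = 0.021).

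Genes that shed or degrade Eph receptors and ephrins were higher for 3 and lower for 5 of 10, with a median of -0.11. Of these, 9 reached the median level, where 32.1% of all genes were called higher and 19.1% lower. ADAM10, the metalloproteinase that cleaves bound ephrin-A, fell by 0.45 ± 0.05 (limma adjusted p = 0.00015) to a mean signal of 362 in shERCC6L, against 500.7 in shNC, and its 3 other probe sets fell too. RHBDL2, a rhomboid protease that cleaves ephrin-B3, fell by 0.26 ± 0.05 with an averaged change of -0.16. The ubiquitin ligase gene CBLB fell by 0.20 ± 0.04 but did not pass with probe sets averaged (-0.07, limma adjusted p = 0.052). PSENEN, a subunit of gamma-secretase, which cuts the stubs left by shedding, rose by 0.55 ± 0.04 on its single probe set.

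**Figure D4:**
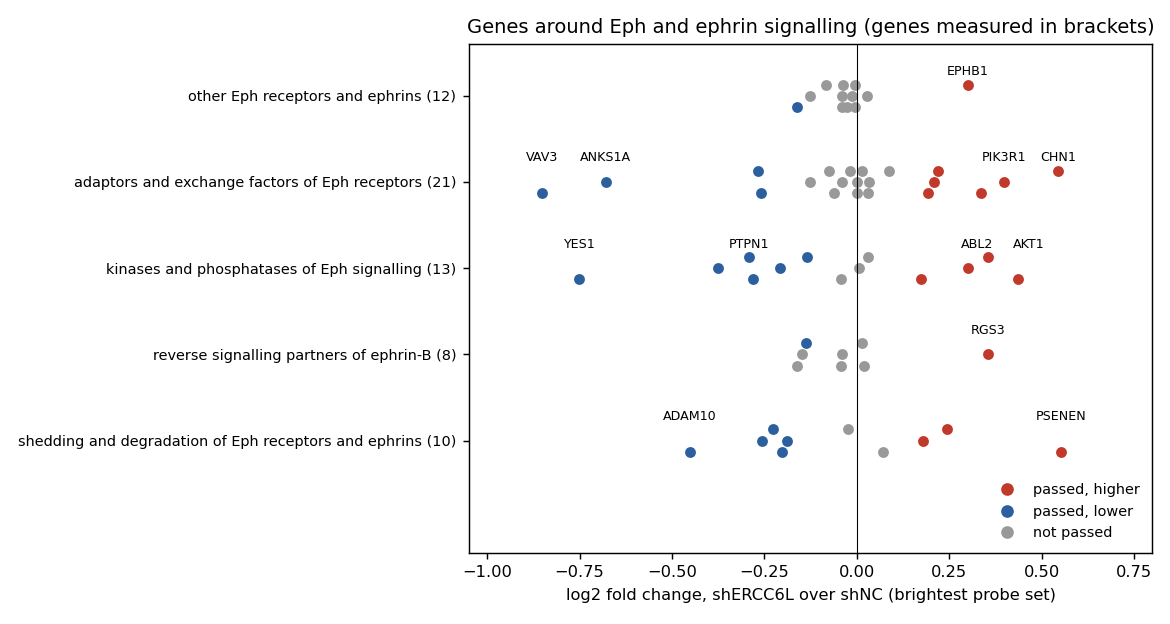
Log2 fold change, shERCC6L over shNC, of the brightest probe set of each gene in 5 lists, with the number of genes measured in brackets (red passed as higher, blue as lower, grey did not pass; vertical offsets within a list only separate the points). VAV3, YES1 and ANKS1A lie farthest to the left, and PSENEN and CHN1 farthest to the right.

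EFNA5 and EFNB2 had the smallest p of the 9 genes, and the genes with the nearest profiles were looked up among 9060 other genes at or above the median level. Nearness was the root mean square difference over the 6 arrays between log2(signal + 16) values, each gene set to its shNC mean. For EFNA5 these were EIF4EBP1 (difference 0.0258), RAPGEF2 (0.0272) and CDH6 (0.0276), which fell by 0.49, 0.50 and 0.50. For EFNB2 they were AKAP12 (0.0140), ZMYM6 (0.0151) and BCL7B (0.0233), which rose by 0.44, 0.43 and 0.44. On averaged probe sets RAPGEF2 was at -0.18 and ZMYM6 at 0.16.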

How the data were processed

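RNA of 6 samples of 786-O cells was hybridised to 1-colour Affymetrix arrays, 3 shERCC6L and 3 shNC. The sample titles say shRNA for the former and shNC for the latter, and do not name the target gene. The authors deposited linear intensities, made with Affymetrix Expression Console per the submitters' processing notes. How that tool corrected, scaled and summarized the probes, and its version, is not given in the sources used here. Array medians lay between 60.04 and 61.56, and correlations of log2 values were 0.9986 to 0.999 within groups and 0.9931 to 0.9938 across groups. The number of arrays limits the precision.

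From the deposited intensities, log2(signal + 16) of 49293 probe sets without 102 controls was fitted with limma 3.58.1 in R 4.3.3 (4 residual and 4.47 prior degrees of freedom, 2-sided, Benjamini-Hochberg over all probe sets, threshold 0.05, intervals at 95%). GEO's platform annotation listed 1 symbol for 44988 of these, several for 1832 and none for 2473. A gene was read on its brightest probe set, and differences between probe sets of a gene were fitted over all pairs. Both fits were tested on simulated data. Besides those of EFNA5, EFNA1 and EPHB1, the brightest probe sets of EFNB1, CHN1, VAV3, AKT1, RGS3, SDCBP and RAPGEF2 carry the _s_at mark. The members and lists were chosen with earlier results of these data known. Named genes are ERCC6L, the 9 members, the other Eph genes past the threshold with the next by p up to 4, the 4 smallest p of each list reported, and the 3 nearest profiles of 2 members. Markers were named where they passed, after their values were seen. Alternatives are given in the closing section. Of the lists, 1 is not reported here.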

Additional observations from a re-analysis of the deposited data

How the results depend on the processing

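Changes of EPHA2 (0.20 to 0.29), EFNB2 (0.30 to 0.46) and EFNA5 (-0.52 to -0.28) kept direction and call in all 16 alternatives: a replicate block, quantile normalization, median centring, added values of 1 or 64, the dimmest probe sets left out, a robust prior variance with an intensity trend, weighted arrays, 1 row per gene, averaged probe sets, and each array left out. EFNA1 ran from -0.17 to -0.11 and lost its call in 5, so 1 of the 9 genes was lower with an added value of 1, and 1 to 2 with an array left out. With an array left out 2 genes were higher, 4 to 6 probe sets higher and 2 to 3 lower, and 1 pair of probe sets differed. With an added value of 64, 2 pairs differed, EFNB2's dimmest from its brightest as well (0.21). Same-numbered arrays did not deviate together (correlations of deviations 0.22, -0.15 and -0.03), so the numbers were not taken as pairs. In the replicate block 3 genes and 6 probe sets were higher, with EPHA4 past the threshold (0.12, limma adjusted p = 0.048), and EFNB3 passed as lower (adjusted p = 0.041). Of the other lists, reverse signalling partners lower ran from 0 to 2, and shedding genes lower were 3 with averaged probe sets against 5. No called result reversed. Over all probe sets, 6872 to 8675 were higher and 4711 to 6318 lower. The table holds no detection calls, so how far dim probe sets lie above background is unknown.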
